A study of Homo sapiens with 6 samples.

Results

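The let-7 target oncofetal genes examined here were *HMGA2*, *HMGA1*, *LIN28A*, *LIN28B*, *IGF2BP1*, *IGF2BP2*, *IGF2BP3*, *ARID3B*, *TRIM71* and *CDC34*. These 10 genes were chosen by symbol as known targets of the let-7 microRNAs, and each matched 1 of the 39739 gene rows of the deposited expression tables. Of the 10 genes, 8 passed the filter on low expression and were among the 23299 genes tested. *LIN28A* and *TRIM71* did not. *HMGA2* and *LIN28B* were higher in cells that overexpressed the *FN1* 3′-UTR, and the other 6 tested genes did not pass the test in either direction.

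RNA-seq covered 6 libraries of HGC27, an established human gastric cancer cell line. In 3 libraries, HGC27-FN1 3′-UTR cells carried a lentivirus that stably overexpressed the 3′ untranslated region of the fibronectin gene *FN1*, and these cells were selected with puromycin. The other 3 libraries came from HGC27-control cells, for which the labels give no vector. The study asked whether the *FN1* 3′-UTR takes up microRNAs, let-7i-5p among them, as a competing RNA. In that case mRNAs that let-7 represses would be expected to rise. The methods describe collected resistant cells and no single clones, the inserted sequence was not given in the sources used here, and nothing says that the libraries of a group came from separate cultures. The p-values therefore measure the spread between libraries, which may be technical.

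let-7 microRNAs are abundant in differentiated tissues and scarce in embryos and stem cells. They bind complementary sites in the 3′ untranslated regions of mRNAs and lower the stability and translation of those mRNAs. Oncofetal genes are active in the fetus, silent in most adult tissues and active again in many tumours, and several of them, including *HMGA2*, *LIN28B* and *IGF2BP1*, are classic let-7 targets. LIN28 proteins in turn block the maturation of let-7, so LIN28 and let-7 repress each other.

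The mature sequences are shown because a single seed defines the targets of the family. All 9 mature let-7 and miR-98 sequences of RefSeq (GRCh38.p14), encoded at 12 loci, had the same bases 2 to 8, printed in capitals below. let-7i-5p is encoded at chr12:62603691-62603712, plus strand.
let-7i-5p: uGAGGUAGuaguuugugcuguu
let-7a-5p: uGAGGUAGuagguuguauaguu
miR-98-5p: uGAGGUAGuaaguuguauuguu

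Matches to this seed were searched in the annotated 3′ untranslated regions of 19097 genes of GENCODE release 29 on GRCh38, on the transcript strand. The 8mer CTACCTCA pairs with the seed and carries an A opposite base 1. The 7mer-m8 match is CTACCTC without that A, and the 7mer-A1 match is TACCTCA without the pairing to base 8. Each position was counted once, under its longest match. An 8mer was present in the longest annotated 3′ untranslated region of 3.72% of the genes, and a match of any kind in any annotated region in 17.0%. All 10 let-7 target oncofetal genes had at least 1 match, and 8 had an 8mer, both counted over any annotated region. The 8mer of *HMGA2* was not in its longest annotated region, the measure behind the 3.72%. *TRIM71* had 8 matches, more than any other gene, *HMGA2* had 7, and *LIN28B*, *IGF2BP1* and *ARID3B* had 5 each. Only 12 of the 19097 genes had 5 or more. *CDC34* and *IGF2BP2* had 2 matches each, and *HMGA1*, *LIN28A* and *IGF2BP3* had 1 each.

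The following sites are shown for the genes with 5 or more matches that were expressed in HGC27 cells, together with the 8mer of *CDC34*. Each line gives 15 bases before the match in lower case and the match in capitals, and all lie on the plus strand within the 3′ untranslated region. The *HMGA2* site was at chr12:65963298-65963320, the *LIN28B* sites at chr6:105078812-105078834 and chr6:105081421-105081443, the *IGF2BP1* sites at chr17:49051061-49051083, chr17:49053698-49053720 and chr17:49054352-49054374, the *ARID3B* site at chr15:74598101-74598122 and the *CDC34* site at chr19:541605-541627.
HMGA2 8mer: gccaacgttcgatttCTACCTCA
LIN28B 8mer a: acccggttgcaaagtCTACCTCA
LIN28B 8mer b: gtttacagcaaaaggCTACCTCA
IGF2BP1 8mer a: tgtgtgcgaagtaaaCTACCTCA
IGF2BP1 8mer b: cagcagtgctagtaaCTACCTCA
IGF2BP1 8mer c: gtataaatggattaaCTACCTCA
ARID3B 7mer-m8: tatttcaataaacctCTACCTC
CDC34 8mer: tccttagacgacagaCTACCTCA

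The 8mers of *LIN28B* and *IGF2BP1* shared the match but not the bases before it. *ARID3B* had no 8mer in any transcript. Its 5 matches were 1 7mer-m8 and 4 7mer-A1. The 7 matches of *HMGA2* lay in a 3′ untranslated region of 3003 bases, while its longest annotated region, of 7421 bases, belonged to another transcript and had none. The transcript with the most matches was therefore used for the sites, a choice made after these counts were seen. The 3′ untranslated region of *FN1* had no match of the 3 kinds in any of its 12 annotated transcripts, and no TACCTC, the 6-base core that the 3 kinds share. A search of letters says only that these runs were not in the annotated region. The paper has other evidence on binding. It reported let-7i-5p among the microRNAs enriched in its pull-down of the *FN1* 3′-UTR, and predicted sites with a separate program. In its luciferase assay the let-7i-5p mimic lowered the activity of the *FN1* 3′-UTR reporter, and the mutant mimic did not. Sites other than the 3 kinds were not searched here.

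Expression was given as RPKM, which divides the reads of a gene by the kilobases of its exons and scales them to 1000000 reads assigned to genes, and every value corresponded to a whole number of reads. The libraries held between 16357085 and 37037532 assigned reads, so that 3 reads stood for between 0.081 and 0.1834 reads per 1000000. Within a group, each library differed from the others by more than sampling noise, and none was counted as a copy of another. *FN1* itself, the overexpressed gene, was at 0.777, 0.745 and 0.819 RPKM in HGC27-FN1 3′-UTR cells and at 0.543, 0.474 and 0.532 RPKM in HGC27-control cells, a log2 fold change of 0.52 (limma, adjusted p = 0.0292). The call was lost when any 1 library was left out, with an adjusted p of 0.0614 to 0.0982. The row covers all exons of *FN1*, of which the untranslated region is one part. The median log2 fold change over all tested genes was -0.04, where 1310 were called higher and 1715 lower at an adjusted p under 0.05. The epithelial markers *EPCAM*, *KRT8*, *KRT18*, *KRT19* and *CDH1* were low in the control cells, with a summed level of 2.59 to 2.99 RPKM, and reached 18.2 to 27.0 RPKM in HGC27-FN1 3′-UTR cells, where 5 of 5 were called higher. The fibroblast markers *DCN* and *COL3A1* summed to 112.5 to 114.3 RPKM against 80.8 to 89.4 RPKM, with *COL3A1* called higher. The mesenchymal marker *VIM* was at 286 to 324 RPKM in all 6 libraries. The endothelial marker *PECAM1* had no read in any library, and the blood marker *PTPRC* stayed at or under 0.0164 RPKM. In bulk libraries, fewer cells of a type and less RNA per cell cannot be told apart. The part of these marker differences in the results below was not tested.

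*HMGA2*, which encodes a chromatin protein that bends DNA and is a classic let-7 target, rose in HGC27-FN1 3′-UTR cells. Its level was 1.58, 1.41 and 1.51 RPKM in HGC27-FN1 3′-UTR cells and 0.872, 1.05 and 1.06 RPKM in HGC27-control cells. The lowest HGC27-FN1 3′-UTR library was above the highest control library, so the groups did not overlap. The means were 1.50 ± 0.0874 RPKM and 0.994 ± 0.106 RPKM (SD, n = 3 each), a ratio of 1.51. The log2 fold change on the scale of log2(RPKM + 0.1) was 0.55 with a standard error of 0.10 and a 95% interval of 0.30 to 0.80 (limma, adjusted p = 0.0210). Across the genome 5.62% of the tested genes were called higher. These values rested on 398, 529 and 680 reads in HGC27-FN1 3′-UTR cells and on 300, 497 and 607 reads in control cells. The *HMGA2* row spans chr12:65824131-65966295, and the antisense gene *RPSAP52* overlaps 2867 bases of it at its start. *RPSAP52* had only 20 reads over all HGC27-FN1 3′-UTR libraries and 13 over the control libraries. The library was stranded but the strand setting of the counting was not given, so reads of the pair may be mixed at that level.

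*LIN28B* encodes an RNA-binding protein that holds back the maturation of let-7 precursors, and its mRNA is a let-7 target at the same time. It also rose. *LIN28B* was at 3.14, 3.21 and 3.00 RPKM in HGC27-FN1 3′-UTR cells and at 2.51, 2.52 and 2.40 RPKM in HGC27-control cells. The 3 libraries of each group lay close together and the groups did not overlap. The ratio of the means was 1.26, with a log2 fold change of 0.32, a standard error of 0.05 and a 95% interval of 0.19 to 0.45 (limma, adjusted p = 0.0169). The gene spans chr6:104936616-105083332 on the plus strand, and the opposite gene *LIN28B-AS1* shared 4832 bases with it and had 3 reads and 6 reads in the 2 groups. *LIN28A*, the paralog of stem cells and early embryos, was all but silent, with 0, 3 and 1 reads in HGC27-FN1 3′-UTR cells and 0, 1 and 2 reads in control cells. It was not tested, and no fold is given between counts this low.

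The calls of *HMGA2* and *LIN28B* were close to the threshold. *HMGA2* had an adjusted p of 0.0706, 0.0516, 0.0634 and 0.0628 without HGC27-FN1 3′-UTR replicate 1, 2 or 3 or control replicate 2, and 0.0445 and 0.0454 without control replicate 1 or 3. *LIN28B* had an adjusted p of 0.0600, 0.0626, 0.0624 and 0.0525 without HGC27-FN1 3′-UTR replicate 1 or 2 or control replicate 2 or 3, and 0.0403 and 0.0433 without HGC27-FN1 3′-UTR replicate 3 or control replicate 1 (limma in each case). With 1 library left out, the log2 fold changes lay between 0.47 and 0.60 for *HMGA2* and between 0.30 and 0.34 for *LIN28B*. With a pseudocount of 1 in place of 0.1, the log2 fold change of *HMGA2* was 0.33 (limma, adjusted p = 0.0195), and that of the overexpressed *FN1* was 0.23. An exact permutation test of either gene alone gave a two-sided p of 0.1, the smallest that 3 against 3 libraries allow. Neither gene reached a log2 fold change of 1.

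**Figure D1:**
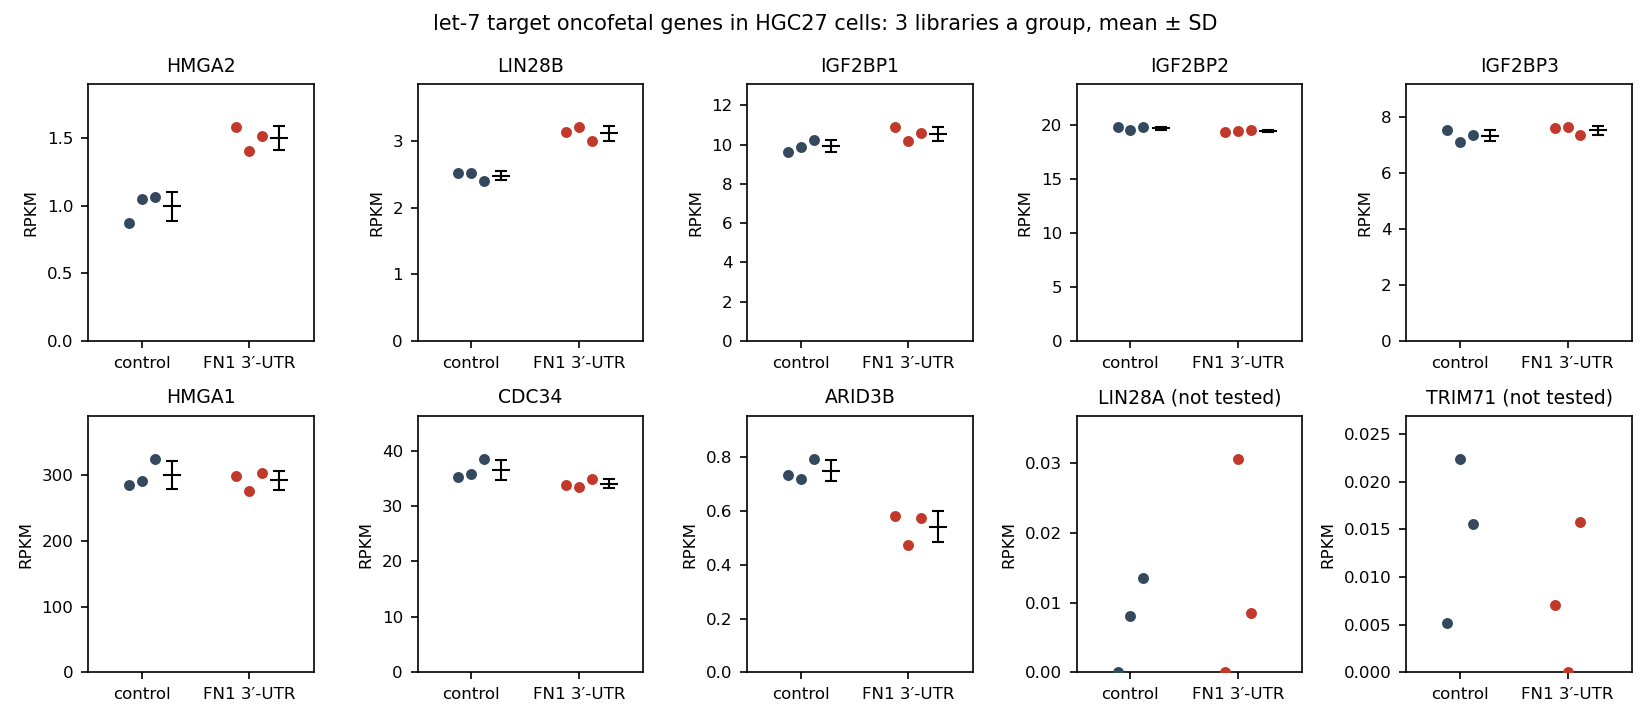
RPKM (linear axis from 0) of each of the 10 let-7 target oncofetal genes, with 1 point per library for 3 control libraries (dark) and 3 *FN1* 3′-UTR libraries (red), and the mean ± SD beside them for the 8 tested genes. *HMGA2* and *LIN28B* lie higher and *ARID3B* and *CDC34* lower in every *FN1* 3′-UTR library than in every control library, while the untested *LIN28A* and *TRIM71* stay under 0.031 RPKM.

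The IGF2BP genes encode RNA-binding proteins that stabilise mRNAs such as *IGF2* and *MYC*, and none of the 3 passed the test. *IGF2BP1*, with 3 8mers and 5 matches in all, was at 10.9, 10.2 and 10.6 RPKM in HGC27-FN1 3′-UTR cells and at 9.62, 9.89 and 10.2 RPKM in HGC27-control cells. The lowest HGC27-FN1 3′-UTR library lay just under the highest control library. Its log2 fold change was 0.09, with a 95% interval of -0.01 to 0.19 (limma, adjusted p = 0.219), so that the interval reached up to a ratio of 1.14. *IGF2BP2* was at 19.3, 19.4 and 19.5 RPKM against 19.8, 19.5 and 19.7 RPKM, with a log2 fold change of -0.02 and an interval of -0.08 to 0.04 (adjusted p = 0.702). *IGF2BP3* was at 7.63, 7.64 and 7.36 RPKM against 7.53, 7.13 and 7.38 RPKM, with a log2 fold change of 0.04 and an interval of -0.06 to 0.13 (adjusted p = 0.588). Both were measured on at least 1062 reads per library, and their intervals did not reach the estimate of *LIN28B*. The end of *IGF2BP3* shares 1521 bases with *MALSU1* on the opposite strand, a gene with 3429 and 4580 reads in the 2 groups, so reads in the shared part may belong to either.

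*HMGA1* encodes the other HMGA chromatin protein and was the most abundant of the 10 genes. It was at 299, 276 and 303 RPKM in HGC27-FN1 3′-UTR cells and at 285, 291 and 325 RPKM in HGC27-control cells. The groups overlapped, and the log2 fold change was -0.04 with an interval of -0.19 to 0.11 (limma, adjusted p = 0.744). The 7 listed *HMGA1* pseudogene rows held between 0.943% and 1.33% of the reads summed over *HMGA1* and its pseudogenes, depending on the library, so the split of reads between the copies is uncertain at about that level. *HMGA1* had a single 7mer-m8 match. The difference between the responses of *HMGA1* and *HMGA2* was not tested.

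*ARID3B* encodes a DNA-binding protein of the ARID family. It moved the opposite way from *HMGA2* without passing the test. *ARID3B* was at 0.581, 0.475 and 0.573 RPKM in HGC27-FN1 3′-UTR cells and at 0.735, 0.721 and 0.795 RPKM in HGC27-control cells. Every HGC27-FN1 3′-UTR library was below every control library. The ratio of the means was 0.723, with a log2 fold change of -0.41, a standard error of 0.12 and a 95% interval of -0.69 to -0.12 (limma, adjusted p = 0.0736). With a pseudocount of 1 the log2 fold change was -0.18. *ARID3B* rested on 59 to 104 reads per library in HGC27-FN1 3′-UTR cells and 102 to 183 in control cells. On the recovered reads, limma's voom called it lower with an adjusted p of 0.00816. The 95% interval lay below 0. *ARID3B* had as many seed matches as *LIN28B* and *IGF2BP1*, but none was an 8mer, against 2 8mers in *LIN28B* and 3 in *IGF2BP1*. The part of the matches in these changes was not tested.

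*CDC34* encodes the ubiquitin-conjugating enzyme that serves the SCF ligases of the cell cycle. It was at 33.7, 33.4 and 34.9 RPKM in HGC27-FN1 3′-UTR cells and at 35.2, 35.7 and 38.5 RPKM in HGC27-control cells. All 3 HGC27-FN1 3′-UTR libraries were lower than all 3 control libraries, but by a ratio of only 0.933. The log2 fold change was -0.10 with an interval of -0.20 to 0.00 (limma, adjusted p = 0.179), and it was -0.06 with median-ratio scaling or without control replicate 3. *TRIM71*, a ubiquitin ligase of stem cells and the gene with the most let-7 matches, had 1, 0 and 4 reads in HGC27-FN1 3′-UTR cells and 1, 6 and 5 reads in control cells. At this depth no difference of *TRIM71* was detectable.

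Among the 8 tested genes, 2 were called higher and 0 were called lower, against 5.62% and 7.36% of all tested genes. At an unadjusted p under 0.05 in the limma fit the counts were 2 higher and 1 lower, the latter *ARID3B* (unadjusted p = 0.0126). Voom on the recovered reads gave the same 2 and 1 at an adjusted p under 0.05. Of all 23299 tested genes voom called 2043 higher and 3065 lower, so it called more genes than limma. Shares of all genes at an unadjusted p under 0.05 are not given here. The median log2 fold change of the 8 genes was 0.01, against -0.04 over all tested genes, with 4 genes above 0 and 4 below. The groups did not overlap for 2 genes with HGC27-FN1 3′-UTR cells higher and for 2 with them lower, against 14.3% and 21.7% of all tested genes. In the control cells the levels fell in the order *HMGA1*, *CDC34*, *IGF2BP2*, *IGF2BP1*, *IGF2BP3*, *LIN28B*, *HMGA2*, *ARID3B*, *TRIM71* and *LIN28A*, from a mean of 301 to 0.00719 RPKM. Only the last pair, *TRIM71* and *LIN28A*, had overlapping ranges. The 2 genes called higher thus stood sixth and seventh in abundance, at 2.48 and 0.994 RPKM, and *ARID3B* stood next at 0.750 RPKM.

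**Figure D2:**
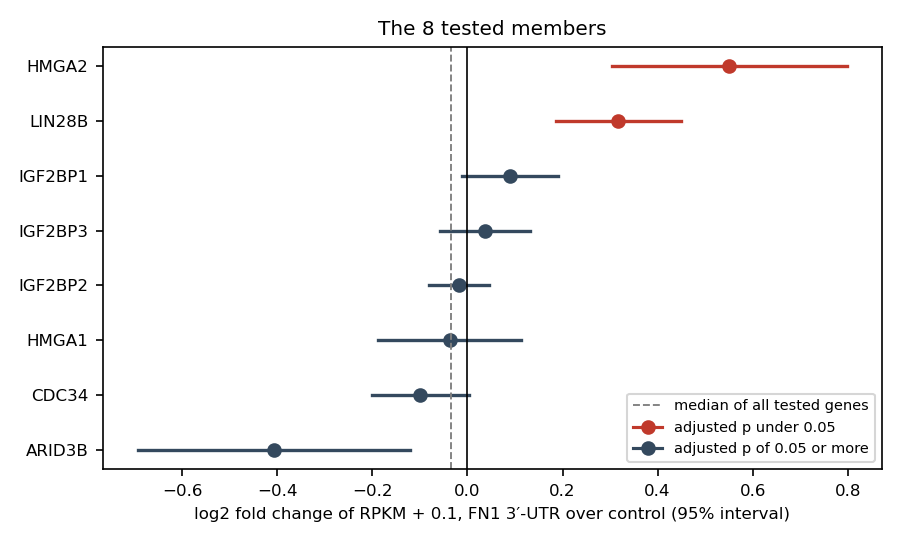
Log2 fold change of RPKM + 0.1 in *FN1* 3′-UTR over control libraries (points) with 95% intervals (bars) for the 8 tested genes, red where the adjusted p was under 0.05, with the median of all 23299 tested genes as a dashed line. *HMGA2* at 0.55 and *LIN28B* at 0.32 lie to the right, *ARID3B* at -0.41 to the left, and the other 5 between -0.10 and 0.09.

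The number of seed matches could be compared with the change for 12943 tested genes that had an annotated 3′ untranslated region. The 10 tested genes with 5 or more matches had log2 fold changes with a median of -0.17, and 4 of the 10 were above 0. *HMGA2* and *LIN28B*, both on the list chosen here, were the only 2 called, both higher. Of the 12943 genes, 41.6% were above 0, 8.03% were called higher and 10.5% lower. Besides *ARID3B* at -0.41 and *IGF2BP1* at 0.09, the group included *FIGN* at 0.16, *NR6A1* at -0.13, *CLCN5* at -0.22, *HEMK1* at -0.30 and *ONECUT2* at -0.31, which were named because they shared this number of matches. Of these 5 genes, 4 had every HGC27-FN1 3′-UTR library below every control library, as did 21.7% of all tested genes. None of the 5 passed the test, with an adjusted p from 0.113 to 0.555 (limma). The genes with 0, 1, 2, 3 and 4 matches had median log2 fold changes of -0.04, -0.05, -0.04, -0.05 and -0.11, over 10462, 2029, 362, 64 and 16 genes. The last 2 groups of the scale, with 4 and with 5 or more matches, held under 20 genes each.

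When only 8mers in the longest annotated region were counted, the 532 genes with at least 1 had log2 fold changes with a median of -0.03. The median was -0.04 for the 12411 genes with none. Of the genes with an 8mer 6.20% were called higher and 8.27% lower, and of those with none 8.11% and 10.6%. The genes with an 8mer had longer 3′ untranslated regions, with a median of 3184 against 1275 bases, and a lower median control level, 2.56 against 3.89 RPKM. The part of length and level in these shares was not tested. To more digits the medians were -0.0264 with an 8mer and -0.0401 without. Over the 3 HGC27-FN1 3′-UTR libraries, each set against the control mean, their standard deviations were 0.00628 and 0.00700. These hold no spread of the control libraries or of the genes, and the gap between the medians was not tested.

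**Figure D3:**
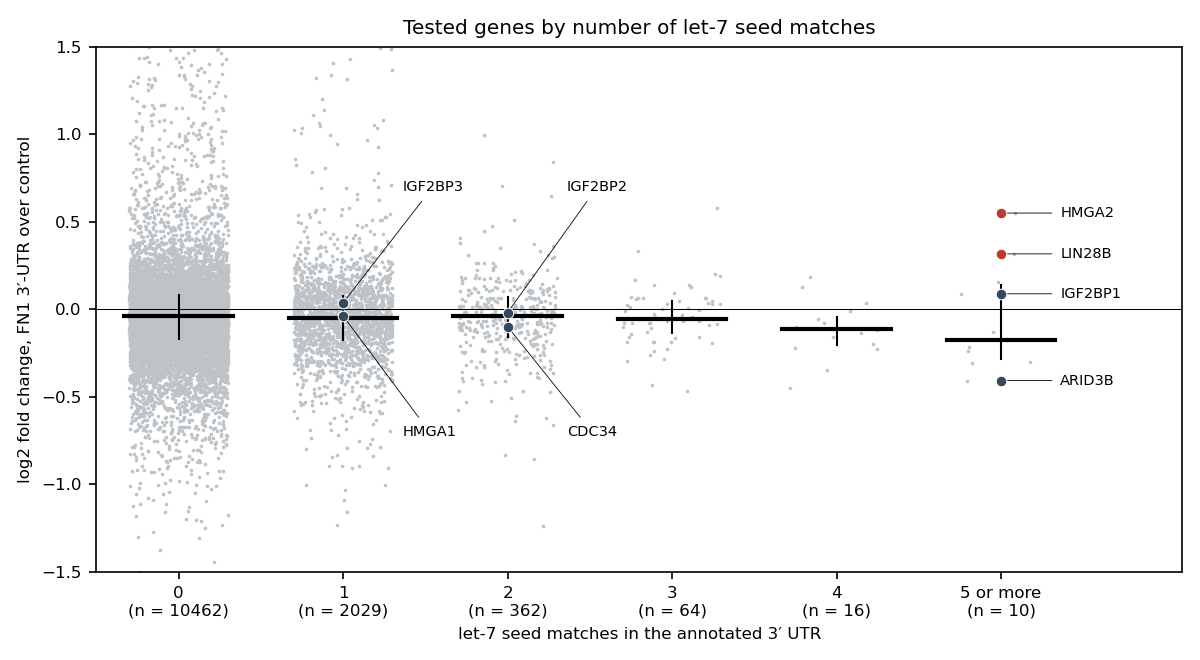
Log2 fold change in *FN1* 3′-UTR over control libraries for 12943 tested genes (grey points) by the number of let-7 seed matches of any kind in the annotated 3′ untranslated region with the most, with the median (thick line) and quartiles (thin line). The 8 tested members are marked, red where called, and 88 genes beyond 1.5 in either direction lie outside the axis. The medians run from -0.04 with no match to -0.17 with 5 or more, and *HMGA2* and *LIN28B* stand above the rest of the group on the right.

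A further list held 33 other let-7 targets known from the literature, of which 31 had at least 1 match and 30 were tested. Of these 2 were called higher, 3 were called lower and 25 passed the test in neither direction, with a median log2 fold change of -0.05. Of all tested genes, 5.62% were called higher and 7.36% lower. *FAS*, a death receptor, was higher at 4.79, 4.48 and 4.34 RPKM in HGC27-FN1 3′-UTR cells against 3.07, 3.23 and 3.36 RPKM in control cells, a log2 fold change of 0.48 (limma, adjusted p = 0.00647). The ribonucleotide reductase subunit *RRM2* was higher by 0.23 on the log2 scale (adjusted p = 0.0226). *MYC*, the growth-promoting transcription factor, was lower at 81.1, 78.4 and 81.9 RPKM against 97.4, 102 and 109 RPKM, a log2 fold change of -0.35 (adjusted p = 0.00734). The TGFβ receptor *TGFBR1* was lower with a log2 fold change of -0.24 (adjusted p = 0.0255), as was the cyclin *CCND2* with -0.19 (adjusted p = 0.0160). The calls of *MYC* and *FAS* held with each library left out. That of *RRM2* was lost in 4 of the 6 fits with a library left out (adjusted p up to 0.0837, without control replicate 2), that of *TGFBR1* in 5 (up to 0.0853, without the same library) and that of *CCND2* in 2 (0.0589 without HGC27-FN1 3′-UTR replicate 1 and 0.0556 without control replicate 2).

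A separate list held genes that make, degrade or use let-7. Of 15 genes for let-7 processing, decay and Argonaute function, all tested, 0 were called higher and 1 lower, against 5.62% and 7.36% of all tested genes, with a median log2 fold change of -0.05 (limma). At an unadjusted p under 0.05 the counts were 0 and 2, and by voom 0 and 3. Voom called 2043 higher and 3065 lower of all 23299 tested genes. *AGO4*, an Argonaute protein that binds microRNAs, fell from 2.97 ± 0.112 RPKM in control cells to 2.12 ± 0.0182 RPKM (SD over 3 libraries each). Its log2 fold change was -0.47 (limma, adjusted p = 0.00549). *DICER1*, which cuts let-7 precursors and is also on the list of other targets, had a log2 fold change of 0.07 (adjusted p = 0.373). *AGO2*, the Argonaute that slices target RNAs, also had 0.07 (adjusted p = 0.731).

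Mature microRNAs are too short for these mRNA libraries, so let-7 itself was seen only through its precursor rows and host genes. The 9 let-7 and miR-98 precursor rows in the tables had from 0 to 17 reads per library. The row of let-7i had 6, 10 and 10 reads in HGC27-FN1 3′-UTR cells and 2, 8 and 8 reads in control cells. Per length and depth these were 4.37, 4.87 and 4.08 RPKM against 1.07, 3.09 and 2.57 RPKM, so the groups did not overlap, with a log2 fold change of 1.07 and a 95% interval of 0.20 to 1.95 that did not pass the test (limma, adjusted p = 0.106). None of the 4 tested precursor rows was called (1 was higher at an unadjusted p under 0.05), and no row measures a mature microRNA. Of all tested genes limma called 5.62% higher and 7.36% lower. Of 5 host genes with a row, *HUWE1*, a ubiquitin ligase gene whose intron carries let-7f-2 and miR-98, was lower at 30.4, 29.8 and 30.0 RPKM against 36.6, 37.9 and 35.7 RPKM, a log2 fold change of -0.29 (limma, adjusted p = 0.00456). The other 4 host genes were not called, although *MIRLET7BHG*, the host of let-7a-3 and let-7b, had a log2 fold change of -0.25 and was called lower by voom (adjusted p = 0.0428). Voom called 3065 of all 23299 tested genes lower.

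**Figure D4:**
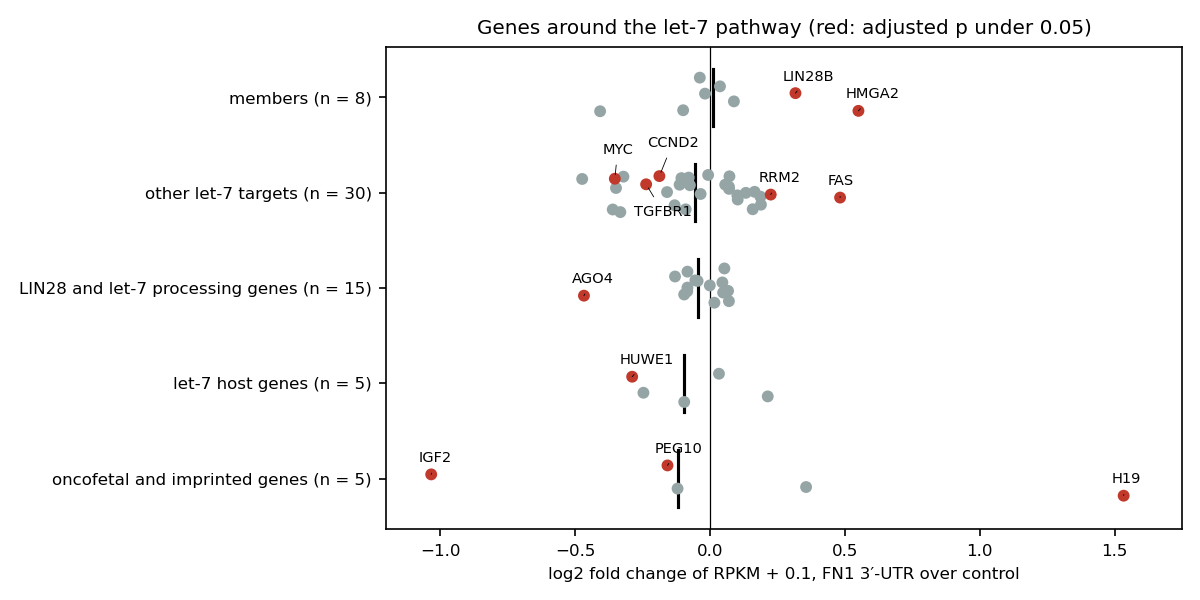
Log2 fold change of RPKM + 0.1 in *FN1* 3′-UTR over control libraries for the tested genes of 5 lists around let-7 (1 point per gene, spread vertically at random), red and named where the adjusted p was under 0.05, with the median of each list as a vertical bar. The medians lie between -0.12 and 0.01, and called genes are found on both sides of 0.

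Larger changes were found among other oncofetal and imprinted genes. Of 13 such genes, 5 were tested, with 1 called higher and 2 lower, against 5.62% and 7.36% of all tested genes. *IGF2*, the fetal growth factor whose mRNA the IGF2BP proteins bind, fell to 15.2, 16.4 and 17.1 RPKM in HGC27-FN1 3′-UTR cells from 37.6, 33.2 and 29.5 RPKM in control cells. *H19*, the noncoding RNA of the same imprinted cluster, which itself carries let-7 sites, rose to 2.94, 2.84 and 2.69 RPKM from 0.729, 0.919 and 1.12 RPKM. Neither pair of groups overlapped. The log2 fold changes were -1.03 (95% interval -1.26 to -0.81) for *IGF2* and 1.53 (1.19 to 1.88) for *H19* (limma, adjusted p = 0.00246 and 0.00280). With a pseudocount of 1 the value of *H19* was 0.997. *PEG10*, an imprinted gene derived from a retrotransposon, was lower with a log2 fold change of -0.16 (adjusted p = 0.0149), a call lost in 4 of the 6 fits with a library left out (up to 0.0621, without control replicate 2). The alpha-fetoprotein gene *AFP*, a further oncofetal marker, had no read in any library.

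**Figure D5:**
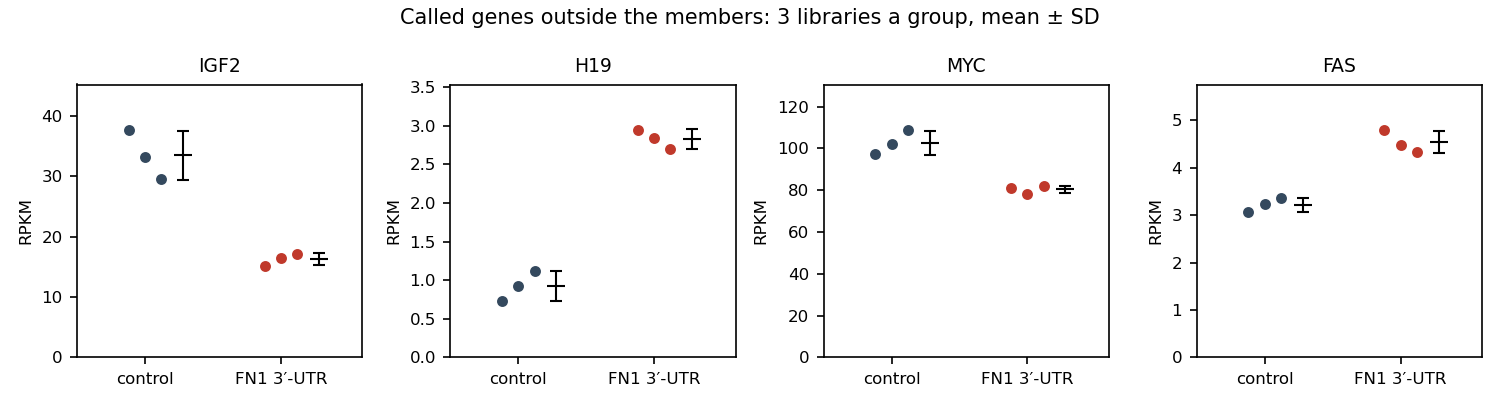
RPKM (linear axis from 0) of *IGF2*, *H19*, *MYC* and *FAS* with 1 point per library for 3 control (dark) and 3 *FN1* 3′-UTR libraries (red), and the mean ± SD beside them. *H19* and *FAS* were higher and *IGF2* and *MYC* lower in every *FN1* 3′-UTR library than in every control library.

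The 6 paralogs of *ARID3B*, *CDC34* and *TRIM71* on a list of their own were all tested, with a median log2 fold change of -0.09. Limma called 0 of them in either direction, against 5.62% higher and 7.36% lower of all tested genes. At an unadjusted p under 0.05 there were 0 higher and 2 lower. Voom gave 0 and 2 as well, against 2043 and 3065 of all 23299 tested genes. Of the 10 rows for antisense genes and pseudogenes of the members, 5 were tested and limma called none, against 5.62% and 7.36% of all tested genes.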

How the data were processed

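RNA-seq of HGC27-FN1 3′-UTR cells and their control was deposited as 3 libraries per group. The authors deposited RPKM per gene, computed after stranded mRNA library preparation. Per the submitters' processing notes, Trimmomatic 0.36, STAR 2.5.3a and featureCounts of Subread 1.5.1 were used with GRCh38. The strand setting of the counting was not given in the sources used here. RPKM times gene length gave whole reads for 100% of the values within 0.01 reads.

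log2(RPKM + 0.1) was fitted with limma 3.58.1 (R 4.3.3) over the 23299 genes with at least 0.1 RPKM in 3 or more libraries, with group as the only term, a trend in the prior variance, two-sided tests and Benjamini-Hochberg adjustment over all tested genes. Genes with an adjusted p under 0.05 were called. The members and lists were chosen with earlier results of these data known, so no list was tested. All members were named, and from each other list up to 4 called genes per direction with the largest change, plus *MYC*, *DICER1*, *AGO2*, *IGF2* and *H19*. Other genes named were chosen after their values were seen, and some genes of the lists are not reported here. Seed matches were searched in GENCODE release 29 transcripts, and mature sequences are RefSeq's. The fit was tested on simulated reads for 23355 genes. It called 97 of 100 genes changed 4-fold, 50 of 100 changed 1.5-fold and 29 of 23155 unchanged genes. Alternatives were the replicate block, other pseudocounts and filters, median-ratio scaling, voom, each library left out, and the criteria of an absolute log2 fold change above 1 with an unadjusted p under 0.05. The 95% intervals are limma's and rest on the spread between libraries, and the floor of 3 reads covers counting error only. Tables and figures used Python 3.11.15, pandas 2.3.3, numpy 2.4.6 and matplotlib 3.10.9.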

Additional observations from a re-analysis of the deposited data

How the results depend on the processing

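Of the let-7 target oncofetal genes, 2 were called higher with pseudocounts of 1 and 0.01, without a filter, at a mean RPKM of at least 1, with median-ratio scaling and with voom, against 0 when a log2 change of more than 1 in size was required at an unadjusted p under 0.05, and 0 to 2 with 1 library left out. The number called lower was 1 with voom (*ARID3B*, log2 fold change -0.48) and 0 under every other setting run. The same-numbered libraries were not paired by any label. Their deviations correlated at 0.00244, 0.0211 and 0.0103. Control replicate 1 correlated best with HGC27-FN1 3′-UTR replicate 3 (0.00835), and every other library correlated best with its own number. With the replicate block 0 members were called higher, with an adjusted p of 0.0745 for *HMGA2* and 0.0573 for *LIN28B* (limma). The block left 1 other let-7 target called higher and 2 called lower, and cut the calls over all genes to 564 higher and 598 lower.

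Among the other let-7 targets, voom called 4 higher and 5 lower, against 2043 and 3065 of all 23299 tested genes. The criteria with a log2 fold change above 1 called 0 and 0, and leaving out 1 library gave 1 to 2 higher and 1 to 3 lower. Among the processing genes, voom called 3 lower, the criteria 0, and each library left out 1. Over all genes 43.3% of the calls were higher, and 56.0% with median-ratio scaling, which moved the median from -0.0352 to -0.00304.

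The median log2 fold change of the members was 0.0440 with median-ratio scaling and 0.0373 at a mean RPKM of at least 1, where 7 were tested, and -0.0045 to 0.0307 with 1 library left out. For genes with a let-7 site it was -0.0485 with 8mer or 7mer-m8 sites and -0.0159 at a mean RPKM of at least 1, an alternative chosen after seeing the data. *IGF2BP2* changed sign to 0.0164 with median-ratio scaling, and *HMGA1*, at -0.0739 to 0.0206 with 1 library left out, changed sign without HGC27-FN1 3′-UTR replicate 2 and without control replicate 3. *FN1* lost its call with the replicate block (adjusted p = 0.0852), without a filter (0.0708) and with any 1 library left out (0.0614 to 0.0982), while *IGF2* and *H19* stayed called under every setting run (limma). Depth limits *LIN28A* and *TRIM71*, for which changes were not detectable, and leaves few reads on the precursor rows.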
